A study of Mus musculus with 4 samples.

Results

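Solute carriers are the large superfamily of membrane proteins that move small molecules across cell and organelle membranes, compared here between sorted bulge cells and total epidermis of mouse skin. The set was taken by name: every gene whose probe sets carry 1 platform symbol beginning with Slc and a number, or with Slco. It comprised 273 of the 12393 genes tested, measured by 440 of the 22690 probe sets on the array, and each gene was represented by its probe set with the highest mean log2 signal over the 4 arrays. The prefix also takes in 3 genes named after a carrier that are not carriers themselves, Slc9a3r1, Slc9a3r2 and Slc4a1ap.

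A total of 4 FACS-sorted samples of back skin from mice at postnatal day 49, in the resting (telogen) phase of the hair cycle, were hybridised to Affymetrix arrays, 2 per group. All mice expressed a K14-GFP-actin transgene, in which the keratin 14 promoter of basal keratinocytes drives GFP-tagged actin. The total epidermis group held all living GFP-expressing cells, and the bulge basal group held living GFP-expressing cells with high α6 integrin and high CD34. No label describes the removal of bulge cells from the total sort. The labels give the same cell type for all 4 samples, so the groups rest on the titles and the population labels. Whether replicates are separate animals is not given, so p-values measure how these 4 samples spread, possibly for technical reasons only. The labels give neither sex nor strain, and other cell types of the skin enter only as far as they passed the GFP gate.

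As background, carriers differ in what they move and what drives it. Facilitative carriers let sugars or nucleosides run down their gradients, cotransporters and exchangers spend the sodium, proton or chloride gradient, and a large family shuttles metabolites across the inner mitochondrial membrane. Several work only with a partner, such as the amino acid carriers of the Slc7 family that need the heavy chain encoded by Slc3a2. In skin, carriers supply keratinocytes with glucose, amino acids, zinc and fatty acids for barrier lipids, and loss of the zinc importer gene SLC39A4 or the fatty acid carrier gene SLC27A4 causes inherited skin disease in people.

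Of the 273 solute carrier genes, 1 rose and 1 fell in bulge basal cells. The prostaglandin carrier gene Slc22a22 was the one that rose and the calcium exchanger gene Slc24a3 the one that fell. These calls are from a limma fit with an intensity trend, at an adjusted p of 0.05 over all 12393 genes, the same fit that called 0.557% of all genes higher and 0.524% lower, 1.08% together. The 2 calls are 0.733% of the carriers, a share near that background. The other 271 did not pass. The limma fit without a trend called none of the 273 and none of all genes, where 26 carriers and 10.5% of all genes had an unadjusted p under 0.05. In the trended limma fit 26 carriers also had an unadjusted p under 0.05, 12 higher and 14 lower. That is 9.52% beside 10.7% of all genes, 5.33% higher and 5.37% lower. Of the 26, 18 were above background in a group mean, 10 higher and 8 lower. With the replicate number added as a block, 18 carriers passed in limma, 11 higher and 7 lower. Over all genes 7.4% passed with the block, 3.77% higher and 3.63% lower. Of the 7 lower carriers, Slc22a4 and Slc29a2 were below background in both groups. No label says what a replicate number marks.

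Slc22a22 encodes an organic anion carrier known to take up prostaglandins in the mouse kidney. Its log2 signals were 1.59 and 1.32 in total epidermis and 8.10 and 6.94 in bulge cells. Both bulge values lay above both total values, but only bulge replicate 1 exceeded the background level, a log2 signal of 7.23 taken as the 95th percentile of olfactory, vomeronasal and taste receptor genes. The fitted difference was 6.06 ± 0.65 (SE), bulge minus total as throughout, at a limma adjusted p of 0.0297. Since both total arrays were below background, the rise is bounded at 1.22-fold or more, and the fitted difference is no measure of its size. The call was lost without total replicate 1 (limma adjusted p of 0.106) and without total replicate 2 (0.0930), and with log2 of signal plus 32, where the difference was 2.65 (0.0544). Without an intensity trend the limma adjusted p was 0.0729.

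Slc24a3 encodes a plasma membrane exchanger that extrudes calcium together with potassium in exchange for sodium. Its log2 signals were 11.45 and 10.94 in total epidermis and 8.92 and 8.42 in bulge cells, all above background and without overlap of the groups. The means were 11.20 ± 0.36 (SD, n = 2) for total epidermis and 8.67 ± 0.35 (SD, n = 2) for bulge cells, a 5.77-fold fall. The difference was -2.53 ± 0.37 (SE) with a 95% interval of -3.43 to -1.63 and a limma adjusted p of 0.0463. The call was lost without total replicate 1 (limma adjusted p of 0.326) and without total replicate 2 (0.228). It was also lost without a trend (0.110), with robust eBayes (0.0562), with quantile normalization (0.0691) and with log2 of signal plus 32 (0.0561). The 5 other members of the calcium exchange class had no call, and 4 of them were below background in both groups.

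The promoter windows of these genes are shown because they are the carriers that passed the test; no measurement here was made on the promoters. The RefSeq table used, on GRCm38.p6, holds 2 starts for each, and the 250 bases before each start are printed 5′ to 3′ on the gene's strand. Capitals mark TATAAA or GGGCGG or CCAAT on either strand, and matches of different motifs did not overlap in these windows. Over all 32851 promoter windows of that length, 12.4% hold TATAAA, 32.7% GGGCGG and 33.8% CCAAT.
Slc22a22 start 1, chr15:57477626-57477875, - strand: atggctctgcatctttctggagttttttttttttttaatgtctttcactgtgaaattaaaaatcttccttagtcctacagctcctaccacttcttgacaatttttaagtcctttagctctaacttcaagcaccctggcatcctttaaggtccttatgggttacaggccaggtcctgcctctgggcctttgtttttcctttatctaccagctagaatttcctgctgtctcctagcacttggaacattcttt
Slc22a22 start 2, chr15:57265162-57265411, - strand: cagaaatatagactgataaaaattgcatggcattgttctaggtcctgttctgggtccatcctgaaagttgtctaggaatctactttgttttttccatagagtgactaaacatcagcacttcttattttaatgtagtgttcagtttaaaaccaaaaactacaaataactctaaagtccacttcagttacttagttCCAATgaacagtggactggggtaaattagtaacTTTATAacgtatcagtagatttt
Slc24a3 start 1, chr2:145167525-145167774, + strand: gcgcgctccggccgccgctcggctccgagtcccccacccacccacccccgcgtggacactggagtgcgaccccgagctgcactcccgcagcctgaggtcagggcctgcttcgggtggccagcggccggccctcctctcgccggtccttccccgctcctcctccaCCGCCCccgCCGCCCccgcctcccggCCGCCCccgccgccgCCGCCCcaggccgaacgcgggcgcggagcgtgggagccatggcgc
Slc24a3 start 2, chr2:145242361-145242610, + strand: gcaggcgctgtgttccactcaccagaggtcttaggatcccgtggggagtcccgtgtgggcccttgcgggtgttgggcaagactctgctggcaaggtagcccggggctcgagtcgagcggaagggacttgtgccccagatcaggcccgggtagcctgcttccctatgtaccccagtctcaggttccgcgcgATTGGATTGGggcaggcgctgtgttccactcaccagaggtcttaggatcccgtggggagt
The windows of Slc22a22 had 40.4% and 33.6% G and C, with 0 and 1 CpG, against medians of 52.4% and 6 over all windows. The second holds 1 TATAAA, read on the opposite strand, and 1 CCAAT. The windows of Slc24a3 had 80.8% and 63.6% G and C, with 35 and 14 CpG. The first holds 4 copies of GGGCGG on the opposite strand, and the second holds 2 of CCAAT on the opposite strand. A match describes the letters in a window and is no evidence of a site in use.

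**Figure D1:**
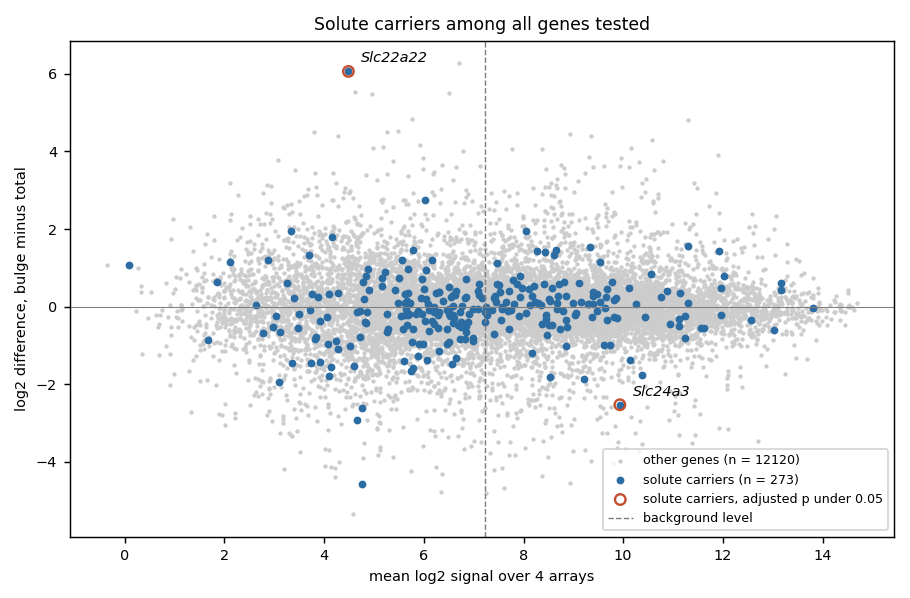
Difference between the groups (log2, bulge basal minus total epidermis) against mean log2 signal over 4 arrays, with 273 solute carriers in blue over the other genes in grey. The carriers spread across the same range as the other genes, and the 2 circled in red, Slc22a22 and Slc24a3, had an adjusted p under 0.05.

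The median difference of the 273 carriers was -0.071 (quartiles -0.48 and 0.36), beside -0.024 (quartiles -0.41 and 0.38) over all genes. With values under the background level set to it, both medians were 0. Bulge and total arrays did not overlap for 114 carriers, 41.8%, of which 50 were higher and 64 lower in bulge cells; over all genes 38.5% did not overlap, 18% higher and 20.5% lower. Of the 114, 35 of the higher and 32 of the lower carriers were above background in a group mean. In all, a group mean lay above background for 131 carriers, 48%, against 58.5% of all genes, and 100 were above it on all 4 arrays. For those 100, the 95% interval of a difference had a median half-width of 0.93 on the log2 scale, before any adjustment over genes. Of the 100, 14 differed by more than 1 on the log2 scale and 1 of these, Slc24a3, was called, so a failure to pass says little about differences of that size.

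**Figure D2:**
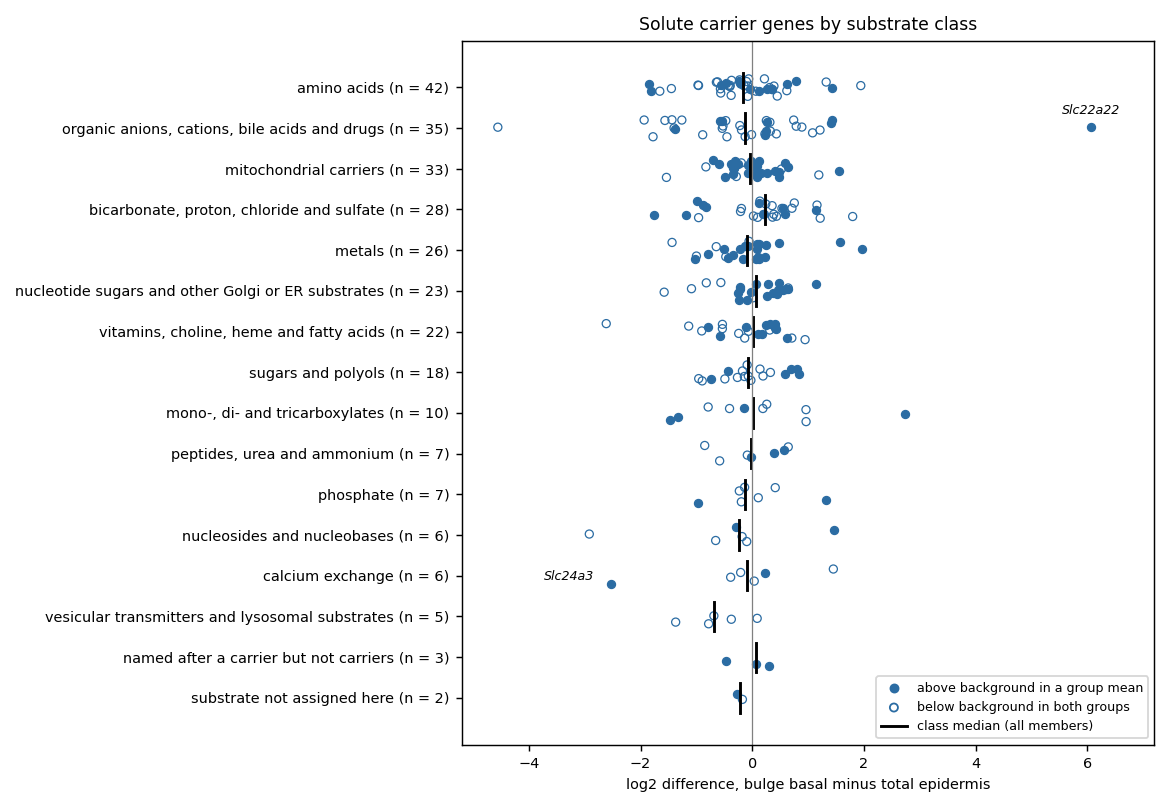
Log2 difference (bulge basal minus total epidermis) of each of 273 carrier genes by substrate class, with a bar at the class median. Filled points are genes above background in a group mean, open points are below it in both groups, and most class medians lie close to 0.

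The substrate classes differed in how many members were measurable. Of 33 mitochondrial carriers 27 were above background in a group, as were 21 of 26 metal carriers and 17 of 23 carriers of nucleotide sugars and other Golgi or ER substrates. In contrast, 13 of 42 amino acid carriers, 9 of 35 carriers of organic anions, cations, bile acids and drugs, and 0 of 5 vesicular carriers were. Signals of different probe sets are not comparable as amounts of RNA, so these counts say only how many could be compared between the groups. Class medians ran from -0.69 for the vesicular carriers, all below background, to 0.23 for the carriers of bicarbonate, proton, chloride and sulfate. In the latter class 18 of 28 members were below background in both groups. Its median was 0 with values under the background level set to it. In a sorted bulk sample, fewer cells of a type and less RNA per cell cannot be told apart.

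Among the metal carriers, the importers of the Slc39 family held the largest differences upward. Slc39a8, which imports zinc, manganese and iron, had log2 signals of 10.80 and 10.21 in total epidermis and 12.21 and 11.94 in bulge cells. The bulge arrays were the higher pair without overlap, with a difference of 1.57 ± 0.37 (SE) that did not pass (adjusted p of 0.142, trended limma). Slc39a13, a zinc carrier of the secretory pathway linked to connective tissue disease, had 7.03 and 7.11 in total epidermis, below background, and 8.74 and 9.33 in bulge cells. Its difference of 1.96 came with a limma adjusted p of 0.0936 and amounts to 3.49-fold or more. Slc39a6, a zinc importer of the same family, lay the other way, at 11.61 and 11.66 against 11.27 and 10.39, as did the copper importer gene Slc31a1 at 9.36 and 9.36 against 8.08 and 8.61. The iron exporter gene Slc40a1 differed by -0.16 and the zinc exporter gene Slc30a1 by -0.13, both smaller than their standard errors. In the trended limma fit 10.7% of all genes had an unadjusted p under 0.05. Of all 26 metal carriers 3 had one and 0 were called. Without overlap 3 were higher and 8 lower, of which 3 and 6 were above background. The groups did not overlap for 42.3% of the class, beside 38.5% of all genes.

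The amino acid carriers included both directions within 1 transport complex. Slc3a2, the heavy chain that carries several Slc7 light chains to the plasma membrane, had log2 signals of 11.60 and 11.65 in total epidermis and 12.43 and 12.39 in bulge cells, a difference of 0.78 ± 0.33 (SE). Its light chain gene Slc7a5, for large neutral amino acids, had 9.88 and 8.98 in total epidermis and 8.83 and 6.40 in bulge cells, a difference of -1.81 ± 0.80 (SE). The groups did not overlap for either gene, and neither passed (adjusted p of 0.493 and 0.516 in the trended limma fit). The bulge pair for Slc7a5 was far apart, with replicate 2 below background. Without bulge replicate 1 its difference was -3.03, which rested on that value below background and has no measured size. Without bulge replicate 2 the difference was -0.60. Slc6a4, the serotonin carrier of neurons and platelets, lay at 10.22 and 10.06 in total epidermis and 8.73 and 7.85 in bulge cells. All 4 values were above background, and the difference of -1.85 ± 0.40 (SE) came with a limma adjusted p of 0.117. Slc38a2, a sodium-coupled carrier of small neutral amino acids, differed by 0.62 ± 0.37 (SE) with bulge arrays higher.

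The taurine carrier gene Slc6a6 showed a wide replicate spread, with 11.77 and 10.66 in total epidermis and 13.59 and 11.69 in bulge cells. The groups overlapped, and its difference of 1.43 had a 95% interval of -0.28 to 3.14. Slc1a3, a glutamate carrier gene, had log2 signals of 6.63 and 6.51 in total epidermis and 4.86 and 4.97 in bulge cells, all below background, so no fold is given. Slc1a5, Slc7a8 and the cystine carrier gene Slc7a11 had both group means below background. In the trended limma fit 10.7% of all genes had an unadjusted p under 0.05. Of 42 amino acid carriers 2 had one, both lower, and none was called. Of these 2, Slc6a4 carries serotonin and is in the class by its Slc6 family, and the other was below background in both groups.

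Several chloride and bicarbonate carriers had differences above 1 on the log2 scale. Slc12a2, the sodium, potassium and chloride cotransporter of secretory and volume-regulating cells, had log2 signals of 11.19 and 11.31 in total epidermis and 10.46 and 8.51 in bulge cells. Both bulge values were lower, by -1.77 ± 0.63 (SE) in difference, at a limma adjusted p of 0.362. Without bulge replicate 1 the difference was -2.74, and without bulge replicate 2 it was -0.80. Slc12a7, a potassium and chloride cotransporter, was at 8.47 and 9.05 against 7.81 and 7.34, a difference of -1.18. The anion exchanger genes Slc4a2 and Slc4a3, which swap chloride for bicarbonate, had the opposite sign. Slc4a3 had 7.26 and 6.56 in total epidermis, 1 of them below background, and 8.06 and 8.02 in bulge cells. Slc4a2 differed by 0.58 ± 0.36 (SE) without overlap. In the trended limma fit 10.7% of all genes had an unadjusted p under 0.05. Of the 28 genes in the class 6 had one, 3 higher and 3 lower, and 0 were called. In both groups 18 of the 28 were below background. Without overlap 9 were higher and 5 lower, and 3 of the higher and all 5 of the lower were above background in a group mean. That is 50% of the class without overlap, beside 38.5% of all genes.

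Carriers of monocarboxylates such as lactate and pyruvate were mostly near background. Slc16a1, a widely expressed lactate carrier, had linear signals of 256 and 99.5 in total epidermis and 49.1 and 81.9 in bulge cells, with total replicate 1 alone above background. Slc16a7, a high-affinity pyruvate and lactate carrier, had log2 signals of 3.20 and 6.13 in total epidermis and 7.03 and 7.78 in bulge cells. Its difference of 2.74 ± 0.97 (SE) rested on dim total values that lay far apart. Slc16a6 differed by -1.48 from total values just above background, Slc16a11 by -0.16 and Slc16a3 was below background in both groups. None of the 10 genes was called in the trended limma fit, and 2 had an unadjusted p under 0.05, beside 10.7% of all genes.

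By the probe set used for each gene, sugar carriers differed by under 1 on the log2 scale in either direction. The glucose carrier gene Slc2a1 had log2 signals of 11.11 and 11.19 in total epidermis and 10.66 and 10.78 in bulge cells. Bulge values were the lower pair, and its other 2 probe sets gave -0.56 and -0.18. Slc2a3, a high-affinity glucose carrier, was at 7.70 and 7.38 against 8.52 and 8.15, with bulge arrays higher. Another of its probe sets, above background on the bulge arrays only, gave 1.15. The rest, below background on every array, gave 0.28 and -0.087. The fructose carrier gene Slc2a5 differed by -0.74 and Slc50a1, a sugar carrier of intracellular membranes, by 0.83, both without overlap. Slc45a2, a melanosome carrier needed for pigment, had 6.87 and 6.76 in total epidermis and 7.45 and 7.35 in bulge cells, close to the background level on all 4. None of 18 members was called in the trended limma fit, and 0 had an unadjusted p under 0.05, beside 10.7% of all genes.

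Among mitochondrial carriers, Slc25a29, which imports basic amino acids, stood at 8.41 and 8.71 in total epidermis and 9.87 and 10.35 in bulge cells. The difference of 1.55 ± 0.35 (SE) came with a limma adjusted p of 0.13. Of its other 4 probe sets, 1 was above background on all 4 arrays and gave 1.68, and the other 3 were below it on both total arrays, so their differences have no measured size. Slc25a5, an ADP and ATP exchanger, was at 13.11 and 13.54 against 12.63 and 12.83. Its difference of -0.59 was lower without overlap, and its other 7 probe sets gave values from -0.34 to -0.84. Slc25a3, which brings phosphate into mitochondria, differed by -0.047 ± 0.39 (SE) with overlapping groups. Slc25a13, an aspartate and glutamate exchanger, and Slc25a14, related to the uncoupling proteins, differed by -0.71 and 0.64. In the trended limma fit 10.7% of all genes had an unadjusted p under 0.05. Of 33 members 1 had one and 0 were called. Without overlap 7 were higher and 5 lower, of which 5 and 3 were above background. The share without overlap was 36.4%, beside 38.5% of all genes.

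The organic ion carriers held Slc22a22 and, in the other direction, the organic anion carrier gene Slco3a1. Slco3a1 had log2 signals of 10.63 and 11.01 in total epidermis and 9.17 and 9.70 in bulge cells, with no overlap. Its difference of -1.39 ± 0.36 (SE) came with a limma adjusted p of 0.179, and its other probe set above background on all 4 arrays gave -1.68. Slco2a1, which also takes up prostaglandins, was at 11.57 and 12.11 in total epidermis and 11.55 and 11.05 in bulge cells, a difference of -0.54 ± 0.38 (SE). Its nearest values between the groups were almost equal, and its other probe set above background gave -0.029. Slc22a18 had 7.50 and 7.62 in total epidermis and 8.44 and 9.54 in bulge cells, a difference of 1.43 ± 0.46 (SE), while Slc22a23 differed by -0.59. Of 35 members the trended limma fit called 1, which rose, and left 34 uncalled. In that fit 5 had an unadjusted p under 0.05, 2 higher and 3 lower, beside 10.7% of all genes.

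Phosphate and nucleoside carriers had few measurable members, and some are named here after their values were seen. The sodium and phosphate cotransporter genes Slc20a1 and Slc20a2 went opposite ways. Slc20a1 was at 10.38 and 9.81 in total epidermis and 9.51 and 8.73 in bulge cells, a difference of -0.98 ± 0.41 (SE). Slc20a2, outside the naming rule, was at 7.93 and 7.96 against 9.07 and 9.47, a difference of 1.33 ± 0.35 (SE), with 0.20 for its other probe set, above background on 2 arrays. Slc29a1, the equilibrative nucleoside carrier of the plasma membrane and also outside the rule, had 8.40 and 7.44 in total epidermis and 9.46 and 9.32 in bulge cells. The groups did not overlap for any of these 3 genes, and none passed (adjusted p of 0.491, 0.182 and 0.231 in the trended limma fit).

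Of the 23 carriers of the Golgi and ER, 5 were higher and 4 lower without overlap. All 4 of the latter were below background in both groups. The share without overlap was 39.1%, beside 38.5% of all genes. Slc35a1, which brings CMP-sialic acid into the Golgi, had 9.71 and 9.20 in total epidermis and 10.42 and 9.77 in bulge cells. Slc35e4, a family member of unsettled substrate, was at 8.56 and 9.38 against 9.78 and 10.44, a difference of 1.14 ± 0.43 (SE). Slc35b1, an ER carrier, overlapped between groups at -0.24. None of the 23 was called in the trended limma fit, and 2 had an unadjusted p under 0.05, 1 in each direction. Over all genes 10.7% had such a p.

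Carriers of vitamins, choline, heme and fatty acids gave no call among 22 in the trended limma fit. In that fit 1 had an unadjusted p under 0.05, beside 10.7% of all genes. Slc44a2, a choline carrier, had 13.04 and 12.87 in total epidermis and 13.71 and 13.05 in bulge cells, which barely separated. Slc19a1, which takes up reduced folate, differed by 0.61 ± 0.39 (SE) with 0.64 for its other probe set above background. The riboflavin carrier gene Slc52a3 differed by -0.58 and Slc46a3, a lysosomal carrier, by -0.80. Slc27a4, the fatty acid carrier needed for the skin barrier, was at 7.33 and 7.69 in total epidermis and 6.98 and 8.84 in bulge cells, so its bulge values enclosed the total values. The zinc importer gene Slc39a4 and the phagosomal metal carrier gene Slc11a1 were below background in both groups.

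**Figure D3:**
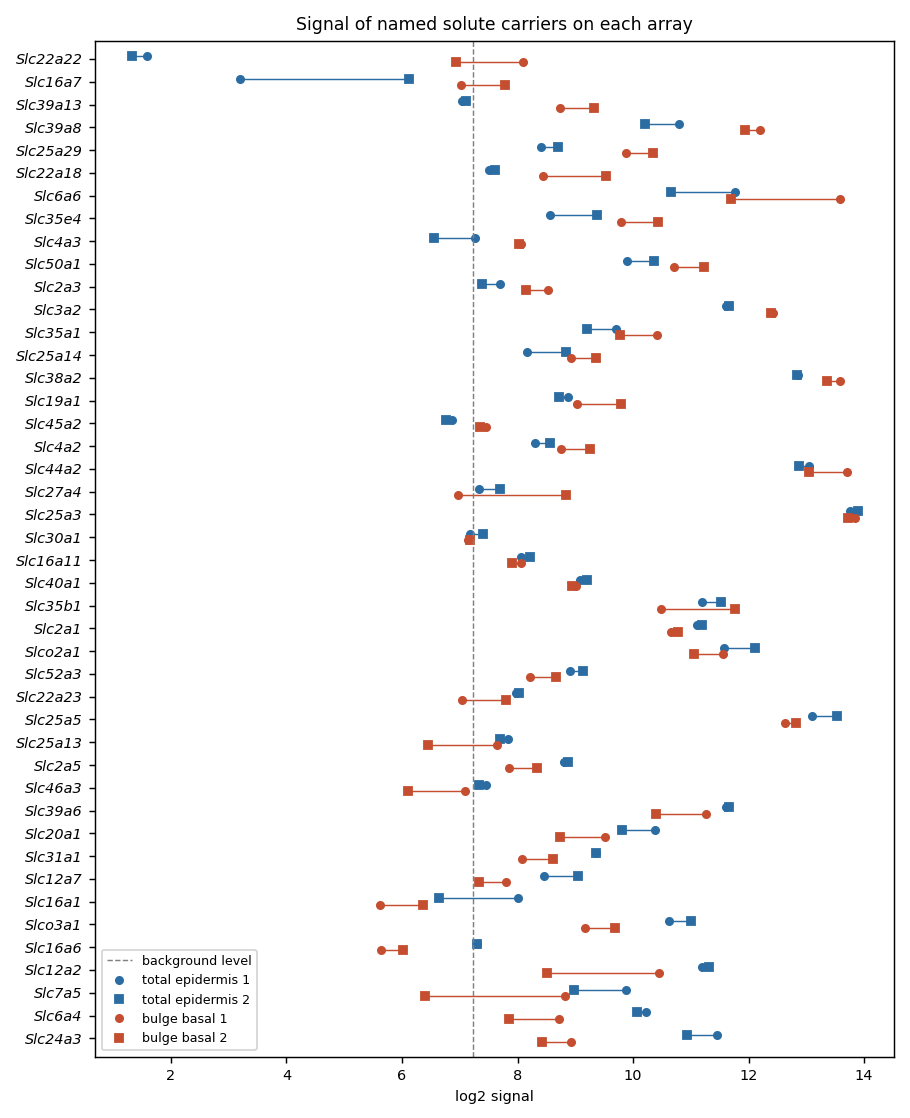
Log2 signal of the 44 named carriers above background in a group, on each of 4 arrays, ordered by difference; circles are replicate 1 and squares replicate 2, and the dashed line is the background level of 7.23. The blue total pair and the red bulge pair lie far apart for Slc24a3 at the bottom and close together or interleaved in the middle rows.

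**Figure D4:**
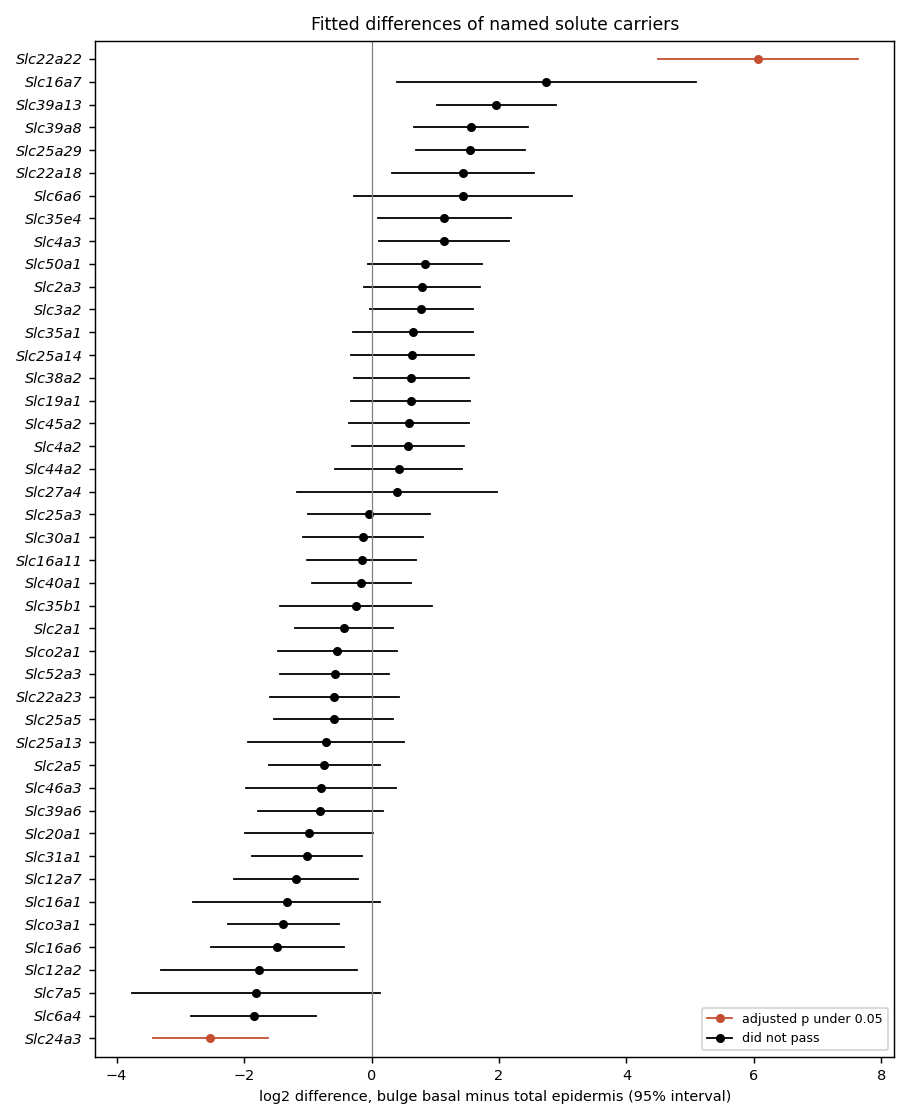
Fitted log2 difference (bulge basal minus total epidermis) with its 95% interval for the same 44 carriers. The intervals of Slc24a3 and Slc22a22, in red, passed the adjusted threshold, and those of the other 42 did not.

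Replicates of the bulge group were farther apart than those of the total group. Over the 131 carriers above background, the median absolute difference between replicates was 0.48 in the bulge group and 0.32 in the total group, and 29 and 8 carriers respectively differed by more than 1. Over all 7249 genes above background the medians were 0.58 and 0.33. The thiamine carrier gene Slc19a2, named after its values were seen, was the extreme case, at 10.91 and 8.37 in bulge cells and 9.55 and 9.08 in total epidermis. Replicate differences of the 2 groups correlated across the 131 carriers at r = 0.49, where the points share the same 4 arrays and genes are not independent replicates.

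**Figure D5:**
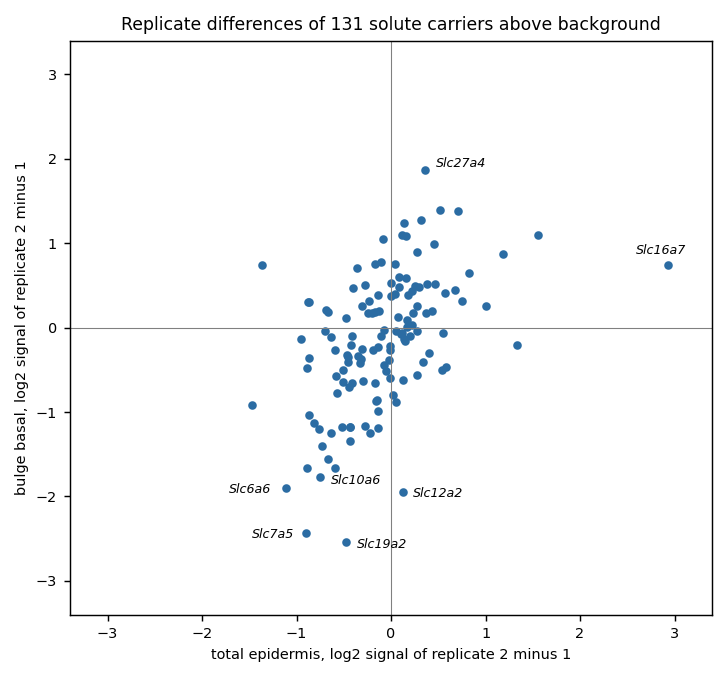
Log2 signal of replicate 2 minus replicate 1 in the bulge group against the same in the total group, 1 point for each of 131 carriers above background. The bulge axis spreads farther than the total axis, with Slc19a2 and Slc7a5 lowest, while Slc16a7 is the farthest on the total axis.

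Genes that work with the carriers were read from the same fit. Of 56 listed, 49 were measured under the listed symbol and none was called in the trended limma fit. Nherf1 and Nherf2, also listed, were measured under their older symbols Slc9a3r1 and Slc9a3r2. They are counted among the carriers and were not called. In the trended limma fit 10 of the 49 had an unadjusted p under 0.05, 2 higher and 8 lower. Over all genes the share was 10.7%, with 5.33% higher and 5.37% lower. The fit without a trend called 0. Atp1b1, a subunit of the sodium pump that makes the gradient many carriers use, had log2 signals of 12.80 and 11.76 in total epidermis and 9.80 and 9.79 in bulge cells, which gave -2.49 ± 0.43 (SE) and a limma adjusted p of 0.0689. Atp1b3 was at 13.35 and 13.44 against 12.67 and 11.65. Among kinases that regulate chloride cotransporters, Stk39, which activates Slc12a2, was at 9.60 and 9.36 against 8.36 and 6.44, while Wnk4 was at 7.85 and 8.42 against 9.52 and 10.04, neither with overlap. Emb, a chaperone of monocarboxylate carriers, differed by 1.17, and the carbonic anhydrase gene Car12 by -1.89. In metal handling, the transferrin receptor gene Tfrc differed by -1.33, the metalloreductase gene Steap4 by 1.12 and the metallothionein gene Mt1 by 0.083. The 9 genes of the amino acid supply response had a median difference of 0.40 (quartiles -0.057 and 0.89). Among them Asns differed by -0.53 and Atf4 by -0.057. Chac1 differed by 0.90 with both total arrays below background, which amounts to 1.76-fold or more. Of 6 genes at the first steps of sugar use, Hk2 differed by 0.60 and Ldha by -0.18.

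Cell type markers were read from the same arrays. The trended limma fit called 0.557% of all genes higher and 0.524% lower. Of 10 bulge markers 5 rose in that fit, among them Cd34, whose protein was used to sort the bulge group. Of 7 basal keratinocyte markers 0 were called in the trended limma fit. Without overlap 2 of these were higher and 1 lower. The lower one was Itga6, the gene of the α6 integrin used in the sort, at -0.91. Of 12 measured T cell markers 3 fell, with summed signals of 2412 and 4151 in total epidermis and 425 and 591 in bulge cells, and of 14 Langerhans cell and myeloid markers 4 fell, with 15400 and 16042 against 4381 and 4413. Of 9 melanocyte markers none was called in the trended limma fit, where 3 had an unadjusted p under 0.05, beside 10.7% of all genes. Without overlap 7 were lower, 4 of them above background in a group mean, with Tyrp1 at -1.45 and Dct at -1.22. Without overlap 1 was higher, Mitf at 2.67. Over all genes 20.5% were lower and 18% higher without overlap. Fibroblast and dermal papilla markers summed to 879 and 695 in total epidermis and 4493 and 1939 in bulge cells, with Col1a2 alone at 343 and 286 against 3852 and 1541. The median difference of these 10 was -0.36, 8 were below background in both groups, and 6 of 8 endothelial markers were below it. Of 8 suprabasal markers 1 fell and of 7 infundibulum and isthmus markers 1 fell, while 0 of 8 sebaceous gland markers were called. Among the suprabasal markers 2 were lower without overlap and 1, Calml3, was higher at 1.69. Among the infundibulum and isthmus markers 5 were lower without overlap and 1, Krt6a, was higher at 1.61. Neither Calml3 nor Krt6a was called. The part of these cell types in the differences of Slc24a3, Slc6a4, Slco3a1 and the other carriers was not tested.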

How the data were processed

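The values are the intensity of each probe set as the authors deposited it, linear and between 0.0546 and 40835, and each array has a 2% trimmed mean of 500.0. GCOS, R 2.15.1, affy 1.36 and RMA appear in the submitters' processing notes with no role, so the tool that made the values is not given in the sources used here. The labels' protocols describe amplification of 200 ng RNA with an oligo-dT primer.

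Log2 was taken with no further normalization. Of 22690 probe sets, 64 controls, 691 with several symbols (3 naming a carrier) and 1555 with none were left out. Symbols came from the platform annotation, and 20351 of 20380 probe sets matched RefSeq (GRCm38.p6) by Entrez ID. The background level came from 67 receptor genes. Where the dimmer group was below it on both arrays (for called genes, on either), the fold is a bound set against the higher of that level and the signal.

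Tests used limma 3.58.1 (R 4.3.3), lmFit and eBayes with an intensity trend, two-sided, Benjamini-Hochberg adjusted over 12393 genes, and the code was tested on simulated data. The number of arrays limits the precision. Members, lists and tests were chosen with earlier results of these data known. Named are called members; in each class with 4 or more members above background, the one with the highest signal and up to 2 per direction without overlap; and 25 carriers known in skin or stem cells, of which 24 were measured. Classes follow carrier families, and Slc66 was left unassigned. Alternatives were the variance model, centring, quantile normalization, a filter on dim genes, log2 of signal plus 32, other probe set rules, a replicate block, updated symbols, a threshold of 0.01 and leaving out each array.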

Additional observations from a re-analysis of the deposited data

How the results depend on the processing

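Against 134 calls over all genes, 2 among carriers and 0 among partner genes, limma without a trend gave 0 and 0 (and 0 partners), robust eBayes 86 and 1, quantile normalization 43 and 1, log2 of signal plus 32 74 and 0, and a threshold of 0.01 gave 0 and 0. Only genes above background on at least 2 arrays gave 1 carrier, Slc24a3. Slc22a22, above background in bulge replicate 1 alone, was removed by that filter and not tested. The mean of all probe sets gave 1 partner gene, Atp1b1. Leaving out 1 array gave 0 to 388 calls over all genes, 0 to 9 among carriers and 0 to 4 among partners; both calls on carriers were lost without either total array, and in each such fit the lone array was assumed to vary like the other group. With the replicate number as a block there were 917 calls over all genes, 18 among carriers (11 higher, 7 lower) and 8 among partners; 2 pairs cannot show that the numbers pair the samples. The block calls included both carriers of the fit without it. The cause of these changes was not tested.

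Of the named carriers, Slc11a1 reversed to 0.0081 with median centring and 0.0063 with quantile normalization, Slc25a3 to 0.021 with median centring and Slc1a5 to -0.14 with values raised to the background level, an alternative added after seeing the data. Leaving out 1 array turned the sign of 8 carriers that were not called, with ranges of -0.17 to 0.052 for Slc11a1, -0.40 to 2.33 for Slc16a3, -0.73 to 1.35 for Slc1a5, -0.12 to 0.023 for Slc25a3, -0.54 to 1.33 for Slc27a4, -0.88 to 0.40 for Slc35b1, -0.20 to 0.92 for Slc7a11 and -0.66 to 0.79 for Slc7a8.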
